A study of Laxus oneistus with 16 samples.

Results

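A single transcript of the marine nematode *Laxus oneistus*, TRINITY_DN88745_c0_g1_i1_9dedup, is described here across oxygen and sulfide incubations. It is 1 of 27984 transcripts in the deposited count files, and the study's annotation matched it to a plasminogen-like protein and placed it among the proteases of the 100 transcripts with the highest mean level. It was picked because it was higher after anoxic incubation with sulfide than after hypoxic incubation. Its levels in these conditions are therefore given as a description without a test. Only full oxygen against anoxia, which uses neither group of that contrast, was tested. The mean level that placed the transcript among the 100 drew on every incubation, and the transcript was chosen with earlier results of these data known.

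In vertebrates, plasminogen is the inactive precursor of the serine protease plasmin. The protein is secreted, binds its substrates through kringle domains and becomes active once it is cut by a plasminogen activator, after which it degrades fibrin and proteins of the extracellular matrix. Nematodes have no fibrin clotting, and the name rests on a sequence match to a protein of another species, so the role of the transcript's product in the worm is not known from these data.

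*L. oneistus* lives in shallow sand and carries a coat of sulfur-oxidizing bacteria on its cuticle. Adult worms from sand bars in Belize, hand-picked on several field trips and carrying their symbionts in every group, were incubated in batches of 50 for 24 h in the dark in filtered seawater. In the oxic incubation (O, 6 libraries) open vials stood in an air-bubbled aquarium, and in the hypoxic one (H, 3 libraries) open vials stood in air. The study gives full air saturation for O, a lower one for H and none for the anoxic incubations. In the anoxic incubation (A, 4 libraries, replicates 1, 2, 3 and 5) vials were kept in a glove bag filled with N2. The anoxic incubation with sulfide (AS, 3 libraries) was set up the same way with sulfide, at 11 µM by the sample labels. This is below the upper limit in the study's main text, and its supplement names a larger amount as added at the start. Each library holds the rRNA-depleted RNA of whole worms, and the labels do not say which batches share a field trip. A level in whole worms cannot tell fewer cells that express a transcript from less RNA per cell.

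Between 9032241 and 18627740 reads per library were counted. Levels are given as CPM, the counts brought to a common library size with edgeR's TMM scaling, a correction for depth and composition, and they are not divided by transcript length. Muscle (*unc-54*, *unc-15*, *tni-3-like*), yolk protein (*vit-6*, *vit-4*), cuticle (*col-96-like*) and mitochondrial (*ctc-1(COI)*) transcripts had reads in each of the 16 libraries. Replicates spread beyond counting noise (chi-square divided by its degrees of freedom was 18.7 to 134 in the 27 within-condition pairs). Libraries stood apart in 2 ways that bear on the values below. A replicates 3 and 5 and O replicates 2, 3 and 5 held reads of 5702 additional transcripts that were nearly absent from the 11 other libraries, and O replicate 6 had the fewest transcripts detected at equal depth (17577, against 19609 to 25926 in the others).

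The plasminogen-like transcript was measured with good counting precision, from 1916 reads in H replicate 3 to 8120 in AS replicate 3, so that counting error alone was between 1.11% and 2.28% per library. The expected count had a fractional part in 16 of 16 libraries, which means that some of its reads also matched other transcripts and were divided among them. A second transcript that Trinity assembled from the same cluster of reads, TRINITY_DN88745_c2_g1_i10_9dedup, received between 131 and 290 reads per library and has no annotation in the sources used here. Whether the divided reads came from that transcript or from other plasminogen-like transcripts was not tested.

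The transcript was highest in the AS libraries. They held 549 CPM (replicate 1), 413 CPM (replicate 2) and 558 CPM (replicate 3), a mean of 507 ± 81.1 CPM (SD, n = 3). These were 3 of the 4 highest values of the 16 libraries.

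The H libraries held the lowest mean level. They were at 242 CPM (replicate 1), 159.8 CPM (replicate 2) and 147 CPM (replicate 3), with a mean of 183 ± 51.8 CPM (SD, n = 3). H replicates 2 and 3 were the lowest of all libraries, whereas H replicate 1 lay between A replicates 1 and 2.

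In worms kept without oxygen and without sulfide, the transcript was at 241 and 247 CPM in A replicates 1 and 2 and at 290.5 and 302 CPM in A replicates 3 and 5. The mean of 270.2 ± 30.6 CPM (SD, n = 4) lay between those of H and AS. Both A libraries with additional transcripts were above both without them, and the part of that library difference in the A level was not tested.

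The O libraries were the most spread. They held 181, 219.6, 207, 209.6, 286 and 494 CPM in replicates 1 to 6, with a mean of 266 ± 117 CPM (SD, n = 6) and a median of 215 CPM. Replicate 6 alone reached the level of the AS libraries, above AS replicate 2. Without it the O mean was 221 ± 39.2 CPM (SD, n = 5). The plot of levels by library shows this separation.

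**Figure D1:**
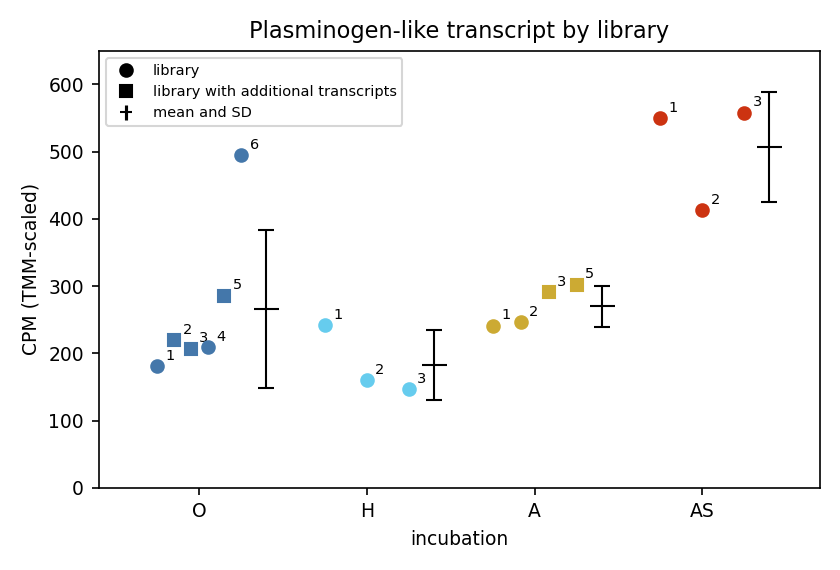
Level of the plasminogen-like transcript (CPM, vertical axis) in each library of the 4 incubations, with the replicate number beside each point, squares for the 5 libraries with additional transcripts, and the mean and SD of each incubation to the right of its points. The 3 AS libraries lie between 413 and 558 CPM, above all A and H libraries, and O replicate 6, at 494 CPM, is the only other library in that range.

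Ordered by mean level, the incubations ran AS (507 CPM), A (270.2 CPM), O (266 CPM) and H (183 CPM), and the order of the medians was the same, at 549, 269, 215 and 159.8 CPM. AS was separated from its neighbour A by a gap between 302 and 413 CPM. A and O differed by less than either SD, and the ranges of O and H and of A and H overlapped. H replicate 1 exceeded A replicate 1 by less than 1 CPM, and it was the only H library to do so.

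In the edgeR fit of the 10 A, AS and H libraries, the transcript was 1.46 log2 units higher in AS than in H (SE 0.21), which is 2.74-fold. This is the difference for which the transcript was chosen. As a description, 1.36% of the 17324 transcripts fitted had a larger AS-H difference, whose median was -0.02 log2 units, and among the 100 most abundant transcripts it ranked 2 behind a transcript of no known similarity (TRINITY_DN48798_c0_g2_i1_4dedup, 1.49 log2 units). Leaving out each library in turn gave values from 1.32 log2 units (without H replicate 3) to 1.74 log2 units (without H replicate 1).

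The same fit split this difference at A, although AS-H and AS-A share the AS libraries and A-H shares the H libraries with the first. The level was 0.89 log2 units higher in AS than in A (SE 0.19), or 1.85-fold, with no overlap between the libraries. It was 0.56 log2 units higher in A than in H (SE 0.20), or 1.48-fold, with overlapping libraries. The abundant transcript of no similarity that exceeded it in AS-H was distributed otherwise, since its A-H difference was 1.64 log2 units, the largest of the 100. The A-H value of the plasminogen-like transcript ranged from 0.43 log2 units without H replicate 3 to 0.83 log2 units without H replicate 1, and the AS-A value from 0.83 to 1.02 log2 units when single libraries were left out. Without A replicates 3 and 5, which hold additional transcripts, A-H was 0.41 log2 units and AS-A was 1.05 log2 units.

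Full oxygen was compared with anoxia in the fit of all 16 libraries, and no difference was found in the transcript's level. O was 0.02 log2 units lower than A (log2 difference -0.02, SE 0.25; edgeR quasi-likelihood F-test, Benjamini-Hochberg FDR = 0.996), and the range of 1.96 SE on either side ran from -0.50 to 0.46 log2 units. An exact permutation test of the log2 CPM of the 10 libraries gave a difference of -0.11 (two-sided, 210 splits, p = 0.743). Of 19093 transcripts tested in this comparison, 25 passed an FDR of at most 0.05 and a 1.5-fold change, or 0.131%. Without O replicate 6 the difference became -0.29 log2 units (SE 0.17, FDR = 0.712). In the 11 libraries without additional transcripts, O replicate 6 included, it was 0.27 log2 units (SE 0.37, FDR = 0.926), and with O replicate 6 left out of these as well, a choice made after seeing the values, it was -0.32 log2 units (SE 0.25). The sign of O-A in the 11 libraries therefore depended on O replicate 6.

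Against the other incubations, O lay 0.93 log2 units below AS (log2 difference -0.93, SE 0.26) and 0.54 log2 units above H (SE 0.28), both as descriptions. Without O replicate 6 these became -1.20 and 0.27 log2 units. With this library and the 5 libraries with additional transcripts left out together, a choice made after seeing the values, they were -1.38 and 0.10 log2 units. The plot of differences shows each of the 6 comparisons with its single-library omissions.

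**Figure D2:**
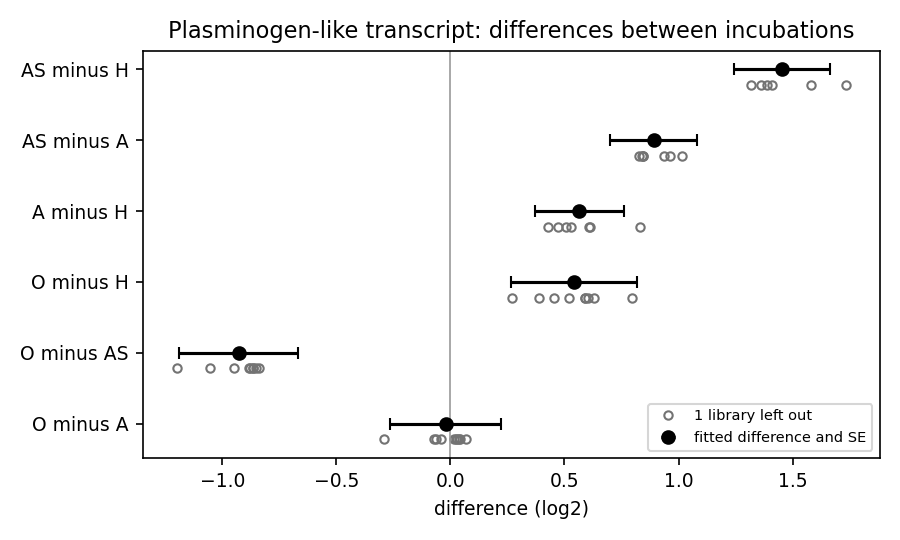
Fitted differences of the plasminogen-like transcript between incubations (log2, horizontal axis), with filled points and bars for the estimate and its SE and open circles for fits with 1 library left out. All open circles of AS minus H lie between 1.32 and 1.74, whereas those of O minus A lie on both sides of 0, from -0.29 to 0.07.

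The O libraries were also ranked against each other over the transcripts called in AS against H, leaving out the plasminogen-like transcript, a comparison made after seeing the values. For the 159 transcripts higher in AS, O replicate 6 was the highest of the 6 O libraries for 49.1%, against 26.4% of all 19092 other transcripts. For the 183 higher in H, it was the lowest O library for 37.2%, near its 31.4% of all transcripts. O replicate 1, which had the lowest level of the plasminogen-like transcript among the O libraries, was the lowest of them for 61.6% of the 159, against 27.9% of all. Both libraries at the extremes of O for the plasminogen-like transcript were thus often at the same extremes for other transcripts higher in AS, and the cause was not tested.

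The expression profile over the 16 libraries was compared with that of every tested transcript, as Pearson's r on log2 CPM. The points of each r share the same libraries, depth and condition means, and r is given as a description only. Over all 19092 other transcripts the median r was -0.06, and 223 of them had an r above 0.8. Among the other 99 abundant transcripts the median was 0.24, and 3 exceeded 0.8.

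The most similar profile belonged to TRINITY_DN86880_c0_g3_i8_9dedup, which has no name in the sources used here (r = 0.97, Spearman's rho = 0.93). It was at 271, 214 and 317 CPM in AS replicates 1 to 3, at 125, 99.03 and 87.7 CPM in H replicates 1 to 3, at 140.2 to 159 CPM in A and at 97.5 to 230 CPM in O. As for the plasminogen-like transcript, its AS libraries were all above A and H, and O replicate 6 was the highest of O and above the lowest AS library. Once each value was taken from its condition mean, r was still 0.92, but O replicate 6, high in both, weighs on it. This r was not computed without O replicate 6, and the transcript was picked for its high r. Within A the 2 did not move together. A replicate 5 was the highest of A for the plasminogen-like transcript (302 CPM) and the lowest for this one (140.2 CPM). TRINITY_DN91138_c1_g1_i13_9dedup came next (r = 0.94, rho = 0.91, and 0.88 within conditions), with 63.1 to 80.9 CPM in AS and 38.2 to 47.8 CPM in H.

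The 5 most similar of the abundant transcripts were 1 of unknown function and 4 with annotated roles in protein folding, translation and respiration. The transcript with no similarity to known proteins, TRINITY_DN92166_c0_g1_i5_9dedup, had an r of 0.87, with 801 to 1380.4 CPM in AS and 523 to 776 CPM in H. The small heat shock protein transcript *hsp-12.2* followed (r = 0.85), with 1123, 768 and 1088 CPM in AS replicates 1 to 3 and 599, 368 and 503 CPM in H replicates 1 to 3. Its AS libraries were all above its H libraries, but A replicate 5 reached 999.5 CPM, within the AS range, which the plasminogen-like transcript did not.

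Large-subunit ribosomal protein transcripts *rpl-33* (r = 0.80) and *rpl-26* (r = 0.79) and *T02H6.11* (r = 0.80), whose *C. elegans* namesake encodes a subunit of respiratory complex III, completed the 5. Levels of *rpl-33* were 363 to 581 CPM in AS and 238 to 316 CPM in H. Those of *rpl-26* were 884 to 1451 CPM in AS and 595 to 768 CPM in H, and those of *T02H6.11* were 447 to 735 CPM in AS and 348 to 376 CPM in H. In all 3 the AS libraries lay above the H libraries, which follows in part from their choice by r with a transcript higher in AS. The share of all tested transcripts without overlap between AS and H was not counted. Taken from the condition means, the r of the 5 transcripts was between 0.60 (*rpl-33*) and 0.77 (TRINITY_DN92166_c0_g1_i5_9dedup).

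At the other end, the abundant transcripts least like it were *ifb-1*, an intermediate filament gene (r = -0.73), the malate dehydrogenase gene *mdh-1* (r = -0.71) and the poly(A)-binding protein gene *pab-1* (r = -0.65). The *ifb-1* transcript was at 735 to 1137 CPM in AS and 1785 to 3133 CPM in H. *mdh-1* was at 657 to 967 CPM in AS and 976 to 1252 CPM in H, and *pab-1* at 3002 to 3381 CPM in AS and 4230.5 to 5054 CPM in H. All 3 were thus lower in every AS library than in every H library, *mdh-1* only narrowly (967 against 976 CPM). This again follows in part from their choice by r, and the share of all tested transcripts without such overlap was not counted. Within conditions the r of *ifb-1* was only -0.20 and that of *mdh-1* -0.33, while that of *pab-1* was -0.52.

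Of all transcripts, the lowest r were -0.93 (TRINITY_DN83821_c0_g1_i1_9dedup, rho = -0.89) and -0.90 (TRINITY_DN53793_c0_g1_i9_4dedup, rho = -0.86). The first was a low transcript at 3.37 to 3.91 CPM in AS and 8.99 to 11.4 CPM in H, and at 2.85 CPM in O replicate 6 against 9.06 to 10.7 CPM in the 5 other O libraries. The second was at 42.5 to 51.9 CPM in AS and 84.5 to 97.7 CPM in H, and at 45.1 CPM in O replicate 6 against 73.6 to 92.0 CPM in the other O libraries. Both were thus near their AS level in O replicate 6, as the plasminogen-like transcript was, but with AS below H. This follows in part from their choice by r over the same libraries.

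**Figure D3:**
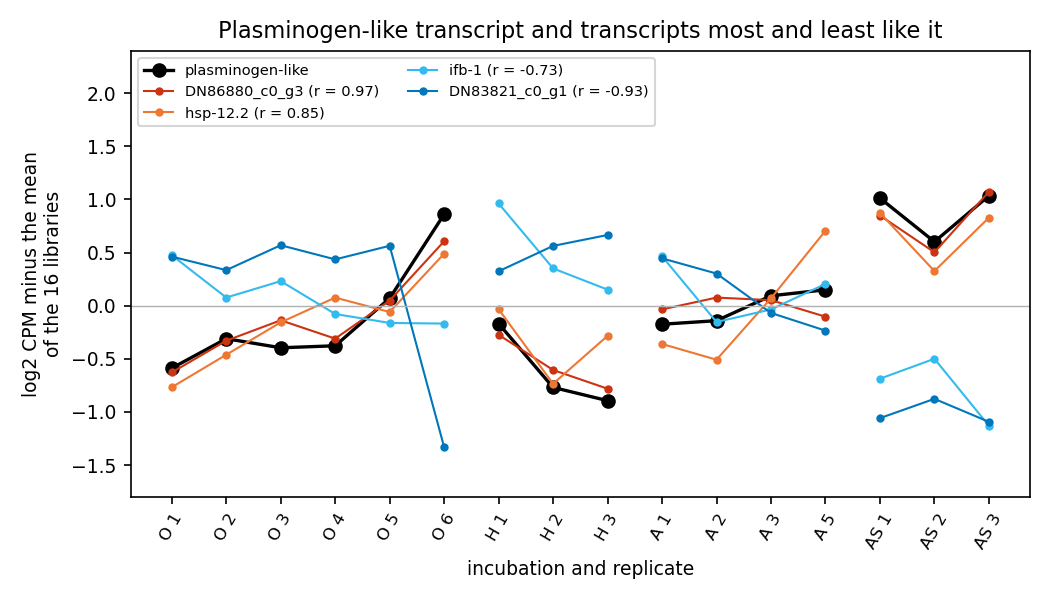
Profiles of the plasminogen-like transcript (black), 2 of the most similar and 2 of the least similar transcripts over the 16 libraries (horizontal axis, grouped by incubation), as log2 CPM minus the mean over the libraries. The plasminogen-like transcript, DN86880_c0_g3 (r = 0.97) and *hsp-12.2* (r = 0.85) are above 0 in O replicate 6 and all AS libraries, where DN83821_c0_g1 (r = -0.93) and *ifb-1* (r = -0.73) are below 0.

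The likeness was computed again without the most distant libraries. AS replicates 1 and 3 lay farthest from the median, and without them r was 0.95 for TRINITY_DN86880_c0_g3_i8_9dedup, 0.75 for *hsp-12.2*, 0.65 for *rpl-33*, -0.51 for *ifb-1* and -0.44 for *mdh-1*. The second transcript of the same read cluster, TRINITY_DN88745_c2_g1_i10_9dedup, had an r of 0.57 (rho = 0.51). Its levels were 14.1 to 19.4 CPM in AS, 10.6 to 14.3 CPM in H, 10.6 to 15.7 CPM in A and 10.2 to 21.1 CPM in O. These ranges overlapped between AS and each other incubation, unlike those of the plasminogen-like transcript between AS and both A and H.

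Plasmin acts on the extracellular matrix, and 6 transcripts annotated to matrix and cell adhesion were therefore read in AS against H. Over all 17324 transcripts tested there, 343 passed an FDR of at most 0.05 and a 1.5-fold change (edgeR quasi-likelihood F-test), or 1.98%, of which 0.924% were higher in AS and 1.06% higher in H. Of the 6, 1 fell, 0 rose and 5 did not pass, and their median difference was 0.07 log2 units, beside -0.02 over all tested transcripts.

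The matrix transcript that fell in AS was *ig-h3-like-2*, named after a secreted adhesion protein induced by transforming growth factor beta in vertebrates. It was at 2238, 1839 and 2448 CPM in AS replicates 1 to 3 and at 5333, 4249 and 3685 CPM in H replicates 1 to 3, so that the groups did not overlap. The difference was -1.04 log2 units (SE 0.22, edgeR FDR = 0.040), and it did not pass when any 1 of these 6 libraries was left out. In A-H it was -0.70 log2 units (SE 0.21, edgeR FDR = 0.373).

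The other matrix transcripts lay on both sides of 0. *ost-1*, the worm's SPARC, a collagen-binding protein of basement membranes, was at 3189, 2115 and 2114 CPM in AS replicates 1 to 3 and at 1335, 736 and 1529 CPM in H replicates 1 to 3. Its difference of 1.03 log2 units (SE 0.43, edgeR FDR = 0.204) did not pass although the groups did not overlap, and A replicate 5 (3297 CPM) and O replicate 6 (3199 CPM) exceeded every AS library. A second, low transcript annotated as SPARC differed by 0.75 log2 units (SE 0.65) from 49 to 79 reads per AS library. The basement membrane proteoglycan *unc-52-like*, named after perlecan, differed by 0.27 log2 units (SE 0.30), the cuticle collagen *col-96-like* by -0.78 log2 units (SE 0.52), and *pdi-2*, which folds collagen in *C. elegans*, by -0.13 log2 units (SE 0.15). Even with this small difference, *pdi-2* did not overlap between AS (2472 to 2696 CPM) and H (2704 to 2898 CPM). Of the 6 matrix transcripts, 3 thus lacked overlap, and the share of all tested transcripts was not counted.

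Of the 5 listed transcripts of intracellular protein turnover, of which 3 are polyubiquitin copies and 1 an acid phosphatase, 0 passed the test in either direction in AS against H. They are too few to stand for protein breakdown as a whole. The *sqst-1-like* transcript, named after an autophagy receptor, differed by -0.80 log2 units (SE 0.26, edgeR FDR = 0.119). Polyubiquitin transcripts *ubq-1-1*, *ubq-1-2* and *ubq-1-3* differed by -0.24, -0.23 and -0.24 log2 units, and their near-identical repeats make the division of reads among them uncertain. The acid phosphatase *acp-7-like* differed by -1.18 log2 units with an SE of 1.39, and it ranged from 2.33 CPM to 8204 CPM within A alone.

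Of the 6 whole-worm markers, 0 passed in either direction, with a median of -0.25 log2 units. The muscle transcripts *unc-54* (0.36), *tni-3-like* (0.30) and *unc-15* (-0.22) and *ctc-1(COI)* (-0.28) differed by less than 2 SE each. Both vitellogenin transcripts, which encode yolk proteins, were lower in every AS library than in every H library: *vit-6* at 3969 to 5700 CPM against 7232 to 15727 CPM (-1.24 log2 units, SE 0.34, edgeR FDR = 0.079) and *vit-4* at 618 to 905 CPM against 1175 to 2579 CPM (-1.27 log2 units, SE 0.35, edgeR FDR = 0.078). Neither passed in this fit, and how many of all tested transcripts lack overlap between AS and H was not counted. Both passed, lower in AS, in 5 of the 17 alternatives, and their part in the level of the plasminogen-like transcript was not tested. The plot of listed transcripts sets these values beside it.

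**Figure D4:**
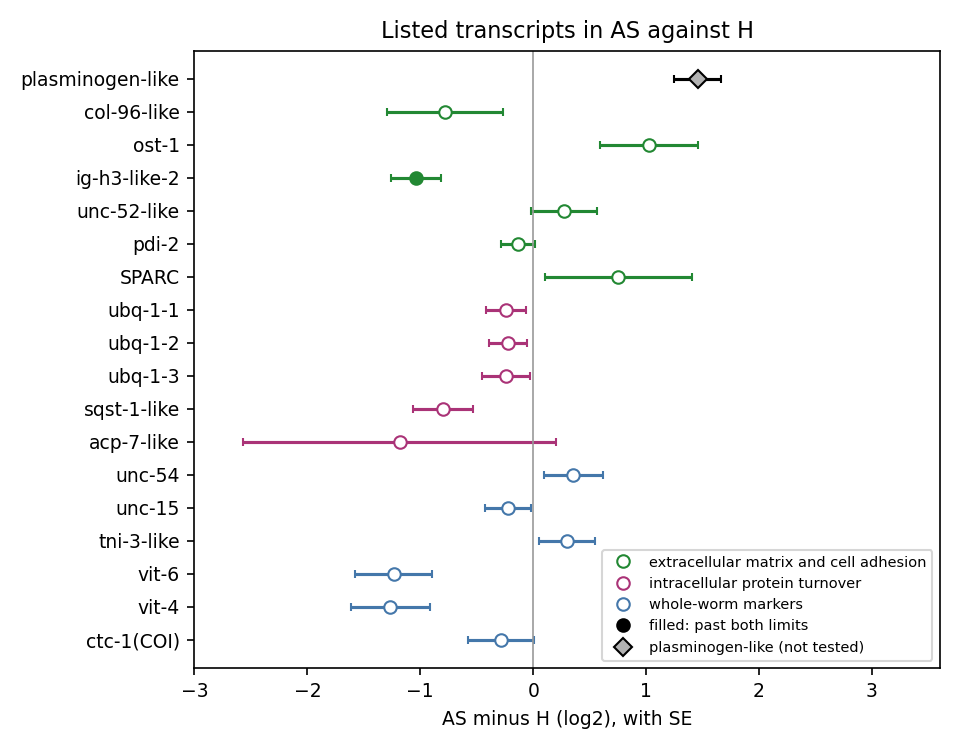
Differences between AS and H (log2, horizontal axis, with SE) of the plasminogen-like transcript (grey diamond, chosen on this difference and not tested) and of the 17 listed transcripts of the matrix and cell adhesion, protein turnover and whole-worm marker lists. Only *ig-h3-like-2*, at -1.04, is filled as past an FDR of 0.05 and a 1.5-fold change, and no listed transcript is as high as the 1.46 of the plasminogen-like transcript.

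Domains that plasminogen holds, trypsin and kringle, were annotated for 7 other transcripts in the part of the annotation used here. Their names and domains are as annotated and were not checked against a sequence. They were low, at 5.41 CPM (*PRSS12*) and 7.76 CPM (*SF3A1*) in their highest single libraries, and 1 of 7 had enough reads to be tested in AS against H. That transcript, TRINITY_DN107075_c0_g1_i1_9dedup, carries a kringle domain, had 31 reads over the AS libraries and 28 over the H libraries, and differed by 0.12 log2 units (SE 0.67, edgeR FDR = 0.938). Of the other 6, *JMJD8*, *PRSS12* and TRINITY_DN108091_c0_g1_i1_9dedup had reads only in the 5 libraries with additional transcripts, and *SF3A1* had 287 reads there and 1.68 in the 11 others. Whether these transcripts come from the worm was not tested. *KLKB1*, named after plasma kallikrein, a relative of plasmin, had 0 reads over the AS libraries and 14 over the H libraries, all in 1 of them, and the trypsin-domain transcript TRINITY_DN10730_c0_g1_i1_9dedup had 0 to 34 reads per library. The plasminogen-like transcript, with at least 1916 reads in each library, was thus read with far greater depth than any of these 7. Other transcripts that the study names plasminogen-like could not be matched to an ID here, so their levels were not compared.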

How the data were processed

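The authors removed symbiont reads, assembled transcripts *de novo* with Trinity, mapped reads with Bowtie2 and deposited RSEM 1.3.1 expected counts per transcript, not normalized; between 35.6% and 47.9% of values per library were fractional. Here the expected counts were rounded and a transcript was kept if 3 or more replicates of some condition had 10 or more reads. Groups follow the sample labels. Comparisons among A, AS and H used the 10 libraries of these conditions, and those with O all 16 (R 4.3.3, edgeR 4.0.16, limma 3.58.1, TMM, quasi-likelihood F-test, Benjamini-Hochberg over all transcripts, FDR at most 0.05 and at least 1.5-fold). The fit was tested on simulated data. Correlations used log2 CPM with a prior count of 2 and plots Python 3.11.15 with matplotlib 3.10.9. Alternatives were other scalings, filters, tests (DESeq2 1.42.0), sets of libraries, a block for the replicate number, and single-library omissions.

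The transcript and the lists were chosen with earlier results of these data known. Named are the transcript, all list members, the second transcript of its read cluster, and the abundant (5 highest, 3 lowest) and tested (2 highest, 2 lowest) transcripts by r. Additional transcripts are those with under 10 reads summed over the 11 other libraries. Annotation was held only in part, transcript lengths were not used here, and no transcript sequence was printed. Replicates are separate batches of worms, and p-values measure the spread between these libraries only. Counting errors do not include other variation.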

Additional observations from a re-analysis of the deposited data

Results flagged for a closer look

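Dixon's test was run on 71 groups of 4 or 6 libraries over the transcripts named above, and in 11 of these a single library lay farther from the others than the 95% limit allows. Chance gives about 1 in 20 for independent groups, which these are not, since they share libraries and several transcripts were chosen for their likeness to the plasminogen-like one. The cases came from 5 libraries, 5 of them from O replicate 6 and 3 from A replicate 5. The plasminogen-like transcript was at 494 CPM in O replicate 6, against 286 CPM in the next highest O library. The same library was the highest of O for *ost-1* (3199 CPM, next 1935 CPM), for the kringle-domain transcript TRINITY_DN107075_c0_g1_i1_9dedup (4.15 CPM, next 1.09 CPM) and for the trypsin-domain transcript TRINITY_DN10730_c0_g1_i1_9dedup (2.94 CPM, next 0.947 CPM), and the lowest for TRINITY_DN83821_c0_g1_i1_9dedup (2.85 CPM, next 9.06 CPM). O replicate 5 was high for *SF3A1* (7.76 CPM), O replicate 2 for *PRSS12* (5.41 CPM, with 0 in the others) and O replicate 1 for *pab-1* (5099 CPM). A replicate 5 was high for the low SPARC transcript (9.87 CPM), *rpl-33* (486 CPM) and TRINITY_DN107075_c0_g1_i1_9dedup (1.69 CPM).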

How the results depend on the processing

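The AS-H, AS-A, A-H, O-H and O-AS differences of the plasminogen-like transcript kept their sign under all 17 to 21 alternatives run. The largest shifts came with O replicate 6 and the 5 libraries with additional transcripts left out, which took O-H from 0.54 to 0.10 and O-AS from -0.93 to -1.38 log2 units, against pooled SDs of log2 CPM of 0.49 and 0.47 that O replicate 6 itself widens. The O-A difference stayed short of the threshold in all 22 refits and had the other sign in 7: 0.27 log2 units in the 11 libraries without additional transcripts, and between 0.015 and 0.068 log2 units with O replicate 1, 2, 3 or 4 or A replicate 3 or 5 left out, in a range from -0.29 to 0.068 log2 units over all single omissions. Of the matrix and adhesion list, 0 transcripts passed without the read filter and 0 with any single AS or H replicate left out, in place of 1. Of the turnover list, 1 (lower in AS) passed with the DESeq2 Wald test, in place of 0. Of the markers, 2 (lower in AS) passed with the DESeq2 Wald test, with the edgeR likelihood ratio test, in the fit of only the compared groups and without A replicates 3 and 5, in place of 0. Whether the replicate number pairs the libraries is not known. Correlations of same-numbered deviations ran from -0.36 to 0.69 (mean 0.11, 19 pairs). Those of differently numbered libraries ran from -0.69 to 0.65 (mean -0.03, 74 pairs), and 7 of 16 libraries were closest to one of their own number. The extremes of both ranges were pairs of an A and an O library. They were positive where both or neither held additional transcripts, and negative where they differed in this. That split was not removed, so these values cannot decide on the pairing. With the replicate number as a block, O-A was -0.28 log2 units (FDR = 0.721), and 2 matrix (1 higher, 1 lower), 1 turnover and 2 marker transcripts passed. For the plasminogen-like transcript, the few libraries (3 or 4 in H, A and AS) and their spread, widest in O, limit the precision, not its reads. Values of transcripts with few reads are limited by their reads as well.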
